A study of Homo sapiens with 8 samples.

Results

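The 41 interferon-stimulated genes described here were chosen by symbol, from a list of well-known type I interferon response genes, and all 41 were found among the 43317 gene names of an Agilent two-colour human expression array, where 55 probes stand for them. Ratios were read on 8 arrays in 5 human cancer cell lines. On every array the Cy3 dye marked RNA of mock cells, which the labels describe as having no transfection, and the Cy5 dye marked RNA of the same line after transfection of a small RNA. PC3 prostate cancer cells received the siRNAs si-PIR-2 or si-PIR-3 against PIR, which encodes the iron-binding nuclear protein pirin, and these 2 arrays are the only pair of 1 group. SK-MES-1 lung squamous cell carcinoma cells received miR-144-5p or miR-144-3p, the 2 strands of 1 microRNA precursor. The pancreatic cancer line PANC1 received miR-130-5p or miR-130-3p. The pancreatic cancer line SW1990 and the breast cancer line MDA-MB-231 both received miR-204-5p. All transfections used the lipid reagent Lipofectamine RNAiMAX. No array carried a control siRNA or control miRNA, so the effect of a given RNA sequence and that of transfection itself cannot be told apart. No dyes were swapped, so a dye bias of a probe cannot be told apart from the transfection either.

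Type I and type III interferons bind their receptors and, through the kinases JAK1 and TYK2, activate a transcription factor complex that holds STAT2 and IRF9. That complex binds the interferon-stimulated response element, a promoter motif built on paired GAAA repeats, and switches on genes that restrict viruses. Cells can start this programme themselves when the RNA sensors encoded by DDX58 and IFIH1 meet double-stranded RNA. Many tumour lines carry a standing level of these genes, and lines differ widely in that level.

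The promoter windows were searched first, because the members were picked by symbol and not by sequence. Of the 41 genes, 34 had a RefSeq promoter window on GRCh38.p14, running from 250 bases before the start to 50 bases after it, and IFIT2, OAS2, OASL, MX2, USP18, IFITM2 and TRIM22 had no entry. The core of the response element, GAAANNGAAA or its reverse complement TTTCNNTTTC, was found in 22 of these 34 windows, which is 64.7%. Over all 27305 promoter windows of the same length the share was 3.65%. There were 38 matches in all, with 1 match in each of 9 genes and 2 or 3 matches in each of 13 genes. The core of the interferon-gamma activated site, TTCNNNGAA, was found in 9 of the 34 windows (26.5%) against 7.88% of all windows, and 5 of the 38 response element matches overlapped one. These matches are descriptions of letters and not of bound sites. The 12 windows with no match were those of CMPK2, HERC6, IFI35, IRF9, OAS1, PARP9, RSAD2, SAMD9L, SP110, STAT2, UBE2L6 and XAF1. The windows below are those of genes with a match that the ratios turn on (IFIT1, DDX60, IFI44, ISG20 and HERC5), of IFI27 and BST2, which differed most between mock cells, and of ISG15. HERC5, IFI27, BST2 and ISG15 had 2 or 3 matches, of which 1 is shown. Each window is read along the gene's own strand, with the matching core in capitals.
IFIT1, chr10:89392497-89392526, plus strand, match from 116 bases before the start: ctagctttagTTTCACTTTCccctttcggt
IFIT1, chr10:89392510-89392539, plus strand, match from 103 bases before the start: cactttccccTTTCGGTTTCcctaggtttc
DDX60, chr4:168318821-168318850, minus strand, match from 88 bases before the start: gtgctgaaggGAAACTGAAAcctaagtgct
DDX60, chr4:168318786-168318815, minus strand, match from 53 bases before the start: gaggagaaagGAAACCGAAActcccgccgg
IFI44, chr1:78649761-78649788, plus strand, match from 18 bases before the start: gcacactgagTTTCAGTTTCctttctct
ISG20, chr15:88638937-88638966, plus strand, match from 69 bases before the start: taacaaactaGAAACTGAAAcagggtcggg
HERC5, chr4:88457035-88457064, plus strand, match from 74 bases before the start: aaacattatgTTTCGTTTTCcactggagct
IFI27, chr14:94110618-94110647, plus strand, match from 108 bases before the start: atgtctgcagTTTCGGTTTCctggaaaatg
BST2, chr19:17405741-17405770, minus strand, match from 130 bases before the start: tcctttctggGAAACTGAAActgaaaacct
ISG15, chr1:1013380-1013409, plus strand, match from 107 bases before the start: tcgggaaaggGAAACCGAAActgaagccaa

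Of the transfected microRNAs, 3 have a label that names a single RefSeq mature sequence, and these are given so that the transfections can be told from each other by sequence. The seed, bases 2 to 8, is in capitals, and the 3 seeds differ. The labels miR-130-5p and miR-130-3p do not say which member of the miR-130 family was used.
hsa-miR-144-5p, chr17:28861583-28861604, minus strand, GRCh38.p14: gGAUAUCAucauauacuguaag
hsa-miR-144-3p, chr17:28861548-28861567, minus strand, GRCh38.p14: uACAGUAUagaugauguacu
hsa-miR-204-5p, chr9:70810031-70810052, minus strand, GRCh38.p14: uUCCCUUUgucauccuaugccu

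All 8 arrays were on 1 slide with 1 scan time, and no spot was saturated. Between 41.4% and 46.4% of 58201 probes were well above background in Cy3, and between 49.8% and 54.6% in Cy5. The targeted gene PIR had log2 ratios of -5.46 with si-PIR-2 and -4.27 with si-PIR-3, between -0.24 and 0.05 on 5 of the other arrays, and -1.59 with miR-130-5p in PANC1. Of 5 epithelial markers, EPCAM, KRT8, KRT18 and KRT19 were detected in mock cells of all 5 lines. The fifth, CDH1, was not detected in SK-MES-1 and PANC1. The mesenchymal markers VIM, ZEB1 and CDH2 were detected in all 5 lines. Among prostate markers, HOXB13 and TMPRSS2 were well above background in mock PC3 cells, and KLK2 and KLK3 were not. Of 5 squamous markers, SK-MES-1 had TP63, KRT14 and SOX2, while the pancreatic line SW1990 had 4, which were KRT5, KRT14, KRT6A and SOX2. KRT7, MUC1 and SOX9, 3 of 4 pancreatic duct markers, were detected in all 5 lines and PDX1 in none. Of 4 breast markers, MDA-MB-231 had ESR1, ERBB2 and GATA3 but not PGR. ERBB2 and GATA3 were detected in all 5 lines. ESR1 was close to background, with a log2 Cy3 level of 4.82 in MDA-MB-231. Its level was higher in SK-MES-1 (5.30), PANC1 (5.12) and PC3 (4.93), so these markers do not set MDA-MB-231 apart. Of 6 immune cell markers, 2 to 4 were detected per line, PTPRC and CD14 in every line.

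Mock cells differed far more in these genes than in genes at large. SW1990 had the highest mock level of 33 of the 41 genes, where 20% of 24762 genes detected in any line were highest in SW1990. MDA-MB-231 was highest for 4 genes (15.2% of all genes), SK-MES-1 for 3 (27.5%), PC3 for 1 (17.5%) and PANC1 for 0 (19.9%). PANC1 was lowest for 27 of the 41 genes (16.1% of all genes). Levels here are log2 Cy3 signals of 1 probe per gene, scaled between arrays to the 75th percentile, so they compare lines for a gene but not genes with each other. A channel not well above background was set to the array's lowest signal that was, unless its own signal was higher, and spans that rest on such a channel are lower limits.

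**Figure D1:**
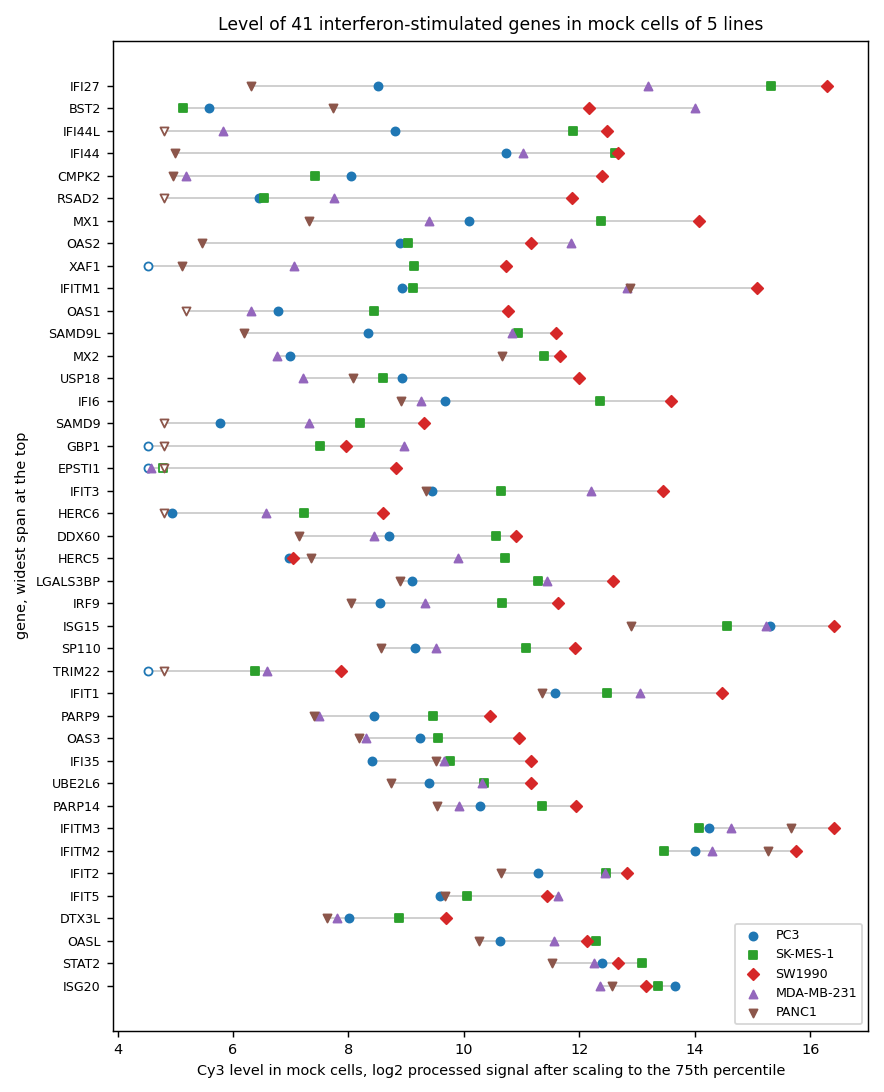
Each row is 1 of the 41 genes, and each point is its mock level in 1 cell line (horizontal axis, log2 processed Cy3 signal after scaling to the 75th percentile), the mean of 2 arrays for PC3, SK-MES-1 and PANC1 and 1 array for SW1990 and MDA-MB-231; open points were not well above background. The SW1990 diamonds lie at the right for 33 genes and the PANC1 triangles at the left for 27.

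The span between the highest and the lowest line was 2 or more on the log2 scale, which is 4-fold, for 39 of the 41 genes, where 28% of all detected genes had such a span. The median span was 3.75 for the interferon-stimulated genes and 1.30 for all detected genes. Set against the median of the other 4 lines, the median gene of the list was 2.39 higher in SW1990 and 0.96 higher in SK-MES-1. The same median was -0.07 in MDA-MB-231, -1.14 in PC3 and -1.73 in PANC1, while over all genes it lay between -0.16 and 0.13 in every line. Mock RNA was hybridised on both arrays of PC3, SK-MES-1 and PANC1. There the 2 Cy3 levels of a listed gene well above background on both arrays differed by at most 0.50, far less than the median span. Levels not well above background on both arrays could differ more, such as 5.37 and 4.72 for BST2 in SK-MES-1 and 4.02 and 4.74 for SAMD9 in PANC1. Whether those 2 channels hold 1 RNA preparation is not stated, so the differences may be technical only, and no test between lines was made.

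IFI27, a small mitochondrial protein gene that responds strongly to interferon alpha, had the widest span, with mock levels of 8.52 in PC3, 15.32 in SK-MES-1, 16.29 in SW1990, 13.19 in MDA-MB-231 and 6.30 in PANC1. BST2, which encodes the virus-tethering protein tetherin, came next at 5.59, 5.13, 12.17, 14.00 and 7.73 in the same order of lines. The order of the lines differed between the 2 genes, since SK-MES-1 was the second highest line for IFI27 and the lowest for BST2.

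IFI44L, a negative regulator of interferon responses, had levels of 8.81, 11.88, 12.48 and 5.82 in PC3, SK-MES-1, SW1990 and MDA-MB-231 and was not well above background in PANC1. Its neighbour and relative IFI44 stood at 10.72, 12.62, 12.68, 11.03 and 5.00. CMPK2, a mitochondrial nucleotide kinase, read 8.05, 7.43, 12.39, 5.18 and 4.96. In all 3 genes SW1990 was highest and PANC1 lowest, and for IFI44 the SW1990 and SK-MES-1 levels differed by less than the repeat Cy3 channels of a line did at most.

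RSAD2, which encodes the antiviral enzyme viperin, had levels of 6.46, 6.54, 11.88 and 7.74 in PC3, SK-MES-1, SW1990 and MDA-MB-231, with none well above background in PANC1. MX1, a GTPase that blocks influenza viruses, stood at 10.09, 12.37, 14.06, 9.40 and 7.32. OAS2, an enzyme that makes the second messenger 2-5A from double-stranded RNA, read 8.89, 9.03, 11.15, 11.85 and 5.47. For OAS2 the highest line was MDA-MB-231 and not SW1990.

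XAF1, a pro-apoptotic partner of XIAP, was not well above background in PC3 and read 9.14 in SK-MES-1, 10.72 in SW1990, 7.05 in MDA-MB-231 and 5.12 in PANC1. IFITM1, a membrane protein that hinders virus entry, had levels of 8.93, 9.11, 15.07, 12.83 and 12.88 in the 5 lines. IFITM1 was therefore high in PANC1, as were IFITM2 (15.26) and IFITM3 (15.66), unlike most of the list. The 2 genes with a span under 2 were STAT2, at 1.57, and ISG20, at 1.30, and ISG20, a nuclease of single-stranded RNA, was the 1 gene highest in PC3.

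In mock PANC1 cells 33 of the 41 genes were detected on at least 1 array, in PC3 37, in SK-MES-1 40, and in SW1990 and MDA-MB-231 all 41. This limits what the ratios can show: 7 genes could not be read on the PANC1 miR-130-5p array, 5 on the miR-130-3p array, 3 with si-PIR-2 and 4 with si-PIR-3, because neither channel was well above background.

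The ratios of the list lay on different sides of 0 in different transfections. Ratios are log2 of transfected over mock, so -1 is a 2-fold lower signal than in mock cells, and each array is 1 sample with no replicate except for the 2 PC3 siRNAs. With si-PIR-2, 13 of the 38 genes read lay below -1, where 2.87% of all genes read did, and 1 lay above 1 (5.82% of all genes). With si-PIR-3, 9 of 37 genes lay below -1 (2.28% of all genes) and 0 above 1 (3.92%). With miR-130-5p in PANC1, 7 of 34 lay below -1 (6.19%) and 0 above 1 (7.55%).

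The SK-MES-1 arrays had their extremes on the other side. With miR-144-5p, 7 of 41 genes lay above 1 (4.17% of all genes) and 0 below -1 (1.96%), and with miR-144-3p, 4 lay above 1 (4.51%) and 0 below -1 (1.11%). In SK-MES-1, BST2 and EPSTI1 with miR-144-3p and EPSTI1 with miR-144-5p were counted on Cy5 alone, EPSTI1 with bounds of 0.61 and 0.70 in that order. With both channels well above background the counts above 1 with miR-144-5p and miR-144-3p were 6 of 40 and 2 of 39 (0.895% and 0.588% of all genes). At a threshold of 1, the other 3 arrays had few genes past it: 2 of 41 below -1 (1.93%) and 0 above 1 (4.56%) in SW1990, 1 of 41 below -1 (1.88%) and 0 above 1 (3.36%) in MDA-MB-231, and 1 of 36 below -1 (1.93%) and 2 above 1 (6.4%) with miR-130-3p in PANC1.

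**Figure D2:**
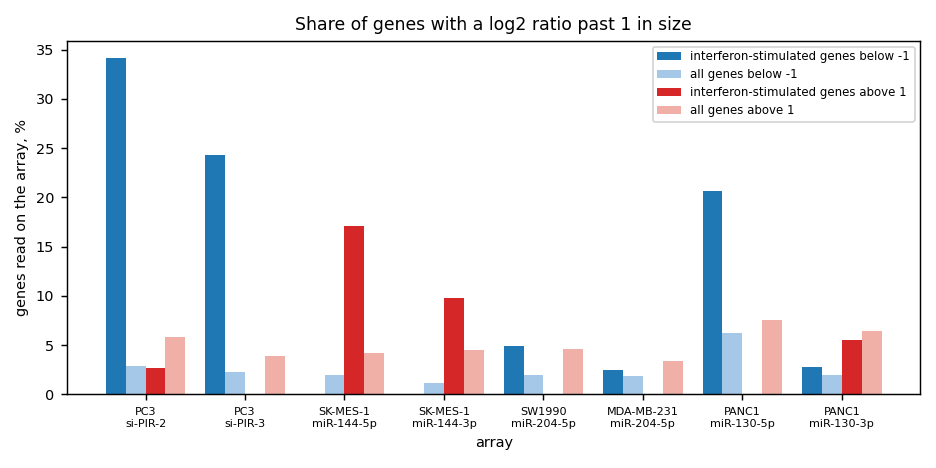
For each array, dark bars give the share of the interferon-stimulated genes read there with a log2 ratio below -1 (blue) or above 1 (red), and pale bars the share of all genes read. The dark blue bars reach 34.2%, 24.3% and 20.6% for si-PIR-2, si-PIR-3 and miR-130-5p, and the dark red bars 17.1% and 9.76% for miR-144-5p and miR-144-3p.

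The medians of the list did not rank the arrays as these counts did, since SW1990 had the lowest median. The median ratio was -0.50 with si-PIR-2 and -0.42 with si-PIR-3, 0.34 with miR-144-5p and 0.33 with miR-144-3p. It was -0.57 in SW1990, -0.06 in MDA-MB-231, -0.40 with miR-130-5p and -0.01 with miR-130-3p, while the median of all genes read lay between 0.02 and 0.09 on every array. In SW1990, the line with the highest mock levels, 39 of the 41 ratios were below 0, where 43.9% of all genes were, although 2 passed -1. At a threshold of 0.58 on the log2 scale, 19 of 41 genes lay lower in SW1990 (6.44% of all genes), next to 18 of 38 with si-PIR-2 (9.23%) and 13 of 37 with si-PIR-3 (7.66%). The extremes differed, with a lowest ratio of -1.86 in SW1990 and of -3.17 with si-PIR-2.

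**Figure D3:**
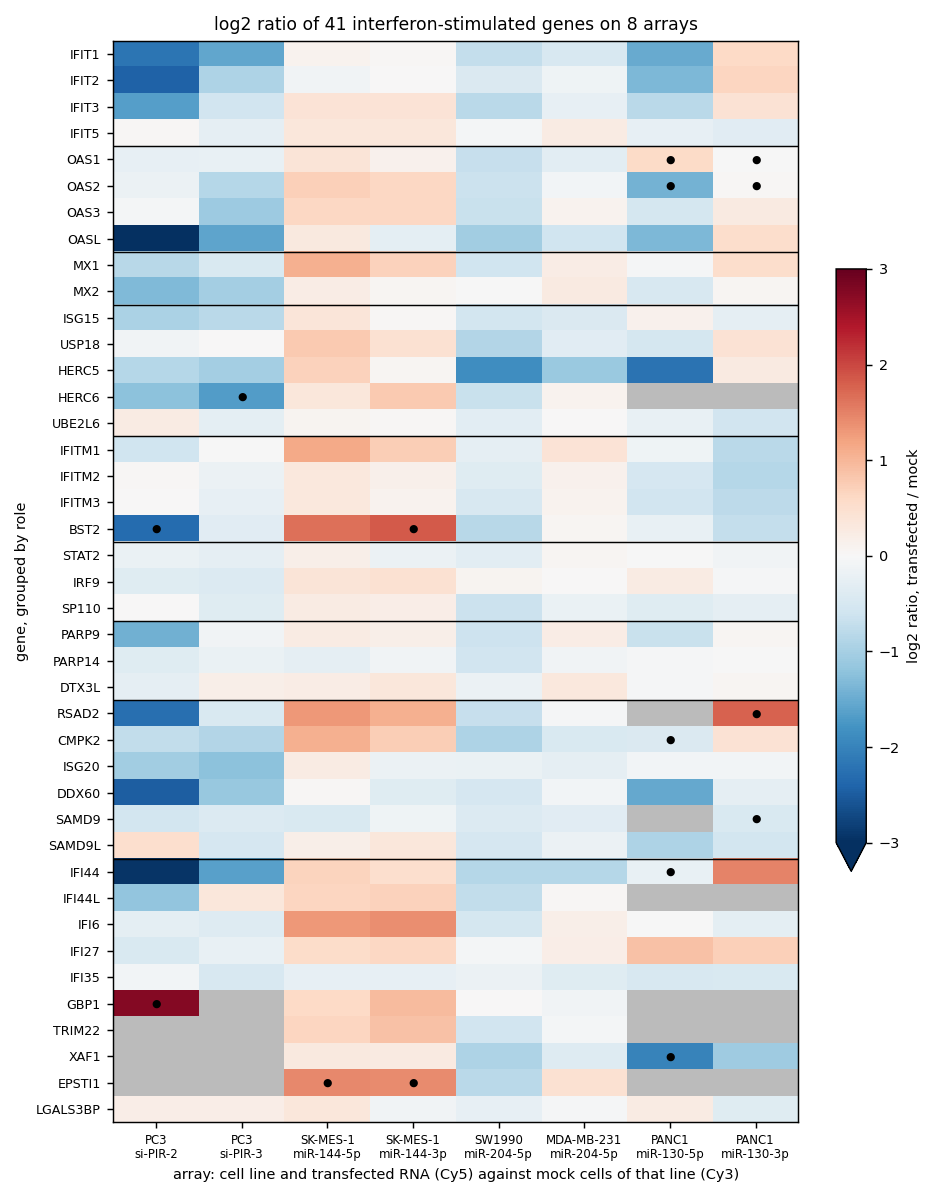
Rows are the 41 genes grouped by role (black lines between groups) and columns the 8 arrays; colour gives the log2 ratio of transfected over mock, from blue (lower) to red (higher), and stops at -3, which OASL passes at -3.17. A dot marks a ratio with 1 channel well above background and grey marks neither; the blue cells collect in the PC3 and miR-130-5p columns and the red cells in the SK-MES-1 columns.

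The genes are now taken by role, and the ratios of a gene are given in the order of arrays si-PIR-2 and si-PIR-3 (PC3), miR-144-5p and miR-144-3p (SK-MES-1), miR-204-5p in SW1990, miR-204-5p in MDA-MB-231, then the PANC1 arrays, with miR-130-5p before miR-130-3p.

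The IFIT proteins bind foreign RNA ends and block its translation. IFIT1, read by a probe at chr10:91163438-91163497 of hg19, had ratios of -2.19 and -1.57, 0.11 and 0.04, -0.72, -0.49, and -1.52 and 0.61. IFIT2 had -2.42 and -0.94, -0.10 and 0.02, -0.43, -0.13, and -1.36 and 0.65. IFIT3 had -1.65 and -0.58, 0.40 and 0.41, -0.80, -0.24, and -0.82 and 0.43. These 3 genes were low on both PC3 arrays and with miR-130-5p, near 0 or somewhat above it in SK-MES-1, and above 0 with miR-130-3p. The fourth member of the family, IFIT5, stayed between -0.33 and 0.33 on all 8 arrays.

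The OAS enzymes sense double-stranded RNA and activate the nuclease RNase L, except OASL, which lacks that enzymatic activity and acts on RNA sensing instead. OASL had the lowest ratio of the whole list, with -3.17 and -1.57, 0.29 and -0.29, -1.04, -0.59, and -1.36 and 0.53. OAS2 had -0.18 and -0.86, 0.71 and 0.63, -0.65, -0.07, and -1.41 and 0.05, with 1 channel above background on both PANC1 arrays. OASL passed -1 on 4 arrays of 3 lines, and the other OAS genes did so on 1 array at most. The 3 OAS2 probes did not read alike: with si-PIR-3 the others gave 0.17 and 0.21, and with miR-130-5p they gave 0.60 and -0.31. OAS1 ranged from -0.68 to 0.58 and OAS3 from -1.09 to 0.62 over the 8 arrays.

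The MX GTPases trap viral nucleocapsids. MX1 had ratios of -0.82 and -0.47, 1.07 and 0.70, -0.61, 0.22, and -0.03 and 0.52. MX2 had -1.33 and -1.03, 0.22 and 0.06, -0.01, 0.28, and -0.48 and 0.05. Both were lower with both siRNAs, MX1 was higher in SK-MES-1, and the second MX2 probe, which gave 0.16 and -0.10 in PC3, did not show the lower ratio.

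ISG15 is a ubiquitin-like protein that UBE2L6 and HERC5 attach to other proteins and that USP18 removes. HERC5, the main ligase, had ratios of -0.85 and -1.01, 0.70 and 0.06, -1.86, -1.12, and -2.20 and 0.27. HERC6, its relative, had -1.22 and -1.68 in PC3, 0.34 and 0.78 in SK-MES-1, -0.67 in SW1990 and 0.11 in MDA-MB-231, and could not be read in PANC1. HERC5 passed -1 on 4 arrays of 4 lines, among them both lines with miR-204-5p, where it had the lowest ratio of the list. The HERC5 signal was dim with si-PIR-3, in SW1990 and with miR-130-5p, with Cy3 intensities of 44.28, 42.1 and 49.97. After normexp background correction at an offset of 50, the HERC5 ratios there were -0.27, -0.36 and -0.53, and -0.76 in MDA-MB-231. None of these passed -1. On the si-PIR-3 array the Cy5 signal of HERC6 was not well above background, and against the lowest signal that was, its ratio was -1.09 or lower. ISG15 itself ranged from -0.94 to 0.36 and was lower on both PC3 arrays, at -0.94 and -0.82, while USP18 ranged from -0.87 to 0.79 and UBE2L6 from -0.57 to 0.24.

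Among the membrane proteins that block virus entry or release, BST2 had ratios of -2.30 and -0.33, 1.65 and 1.84, -0.83, 0.07, and -0.23 and -0.71. The ratio with si-PIR-2 rests on Cy3 alone and that with miR-144-3p on Cy5 alone, the latter being at least 1.67 against the lowest signal well above background. IFITM1 had -0.59 and -0.01, 1.14 and 0.74, -0.26, 0.41, and -0.14 and -0.81. A second BST2 probe gave -1.65 and -0.59 in PC3, the first again on Cy3 alone, and 0.91 and 0.87 in SK-MES-1 with both channels well above background, so the gene passed 1 there with 1 of its 2 probes. In both probes the ratio was lower with si-PIR-2 than with si-PIR-3. With miR-130-3p the 3 IFITM genes were all lower, at -0.81, -0.84 (IFITM2) and -0.78 (IFITM3), whereas IFIT1, IFIT2 and IFIT3 stood above 0 on that array.

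The transcription factors of the list had small ratios. STAT2, which acts together with IRF9 in the activating complex, ranged from -0.32 to 0.17, IRF9 from -0.42 to 0.45, and the nuclear body protein SP110 from -0.65 to 0.25. PARP9 and its partner DTX3L form a complex that modifies histones. PARP9 had ratios of -1.45 and -0.09, 0.25 and 0.18, -0.63, 0.21, and -0.66 and 0.05. Its 2 probes disagreed in opposite ways for the 2 siRNAs, since the other probe gave -0.29 and -1.63, so no level of the gene in PC3 can be read from 1 of them. DTX3L ranged from -0.27 to 0.35 and PARP14, a related ADP-ribosyltransferase, from -0.57 to 0.00.

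Enzymes that act on nucleic acids and nucleotides held several of the lowest ratios. DDX60, a helicase that aids RNA sensing, had -2.48 and -1.13, 0.03 and -0.37, -0.50, -0.09, and -1.54 and -0.27. ISG20 had -1.04 and -1.24, 0.24 and -0.17, -0.21, -0.27, and -0.07 and -0.08. RSAD2 had -2.27 and -0.45 in PC3, 1.31 and 1.08 in SK-MES-1, -0.70 in SW1990 and -0.03 in MDA-MB-231, and could not be read with miR-130-5p. DDX60 was low in PC3 and with miR-130-5p, ISG20 in PC3 alone, and RSAD2 mainly with si-PIR-2. With miR-130-3p the Cy3 signal of RSAD2 was at background, and its ratio was at least 1.19. CMPK2, which lies beside RSAD2 in the genome, had -0.74 and -0.87, 1.06 and 0.74, -0.92, -0.46, and -0.43 and 0.44. SAMD9 and SAMD9L, which restrict poxviruses, ranged from -0.54 to -0.13 and from -0.91 to 0.51.

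In the remaining group, IFI44 had ratios of -2.94 and -1.63, 0.67 and 0.51, -0.85, -0.85, and -0.22 and 1.48. IFI44L had -1.18 and 0.34, 0.65 and 0.70, -0.74 and 0.04, and could not be read in PANC1. The 2 relatives therefore parted with si-PIR-3, where IFI44 was below -1 and IFI44L above 0. IFI27, the gene with the widest mock span, had -0.46 and -0.23, 0.54 and 0.62, -0.05, 0.19, and 0.88 and 0.73. XAF1 had 0.30 and 0.27 in SK-MES-1, -0.92 in SW1990, -0.38 in MDA-MB-231 and -2.001 and -1.06 in PANC1, where the first of these rests on Cy3 alone and was -1.03 or lower. It could not be read in PC3. IFI6, an inhibitor of apoptosis, ranged from -0.53 to 1.39 and had its highest ratios in SK-MES-1, at 1.30 and 1.39. GBP1, a GTPase that attacks pathogen vacuoles, read 2.75 with si-PIR-2 on Cy5 alone, at least 1.19, and EPSTI1 read 1.44 and 1.42 in SK-MES-1 on Cy5 alone, at least 0.70 and 0.61. TRIM22 ranged from -0.57 to 0.89, IFI35 from -0.49 to -0.08 and LGALS3BP from -0.37 to 0.34.

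Whether both PIR siRNAs gave the same pattern was asked first of the genes past 1 on both arrays. Of 37 listed genes read on both PC3 arrays, 7 lay below -1 on both (DDX60, HERC6, IFI44, IFIT1, ISG20, MX2 and OASL), where 0.401% of all genes read on both did so. None lay above 1 on both, where 0.699% of all genes did. IFI44, IFIT1 and OASL were also below -1.5 on both arrays. The 2 arrays share the mock line as control, so their likeness is no independent evidence. The siRNAs also differed in size, and the 5 genes with the lowest mean ratios all had the lower value with si-PIR-2.

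**Figure D4:**
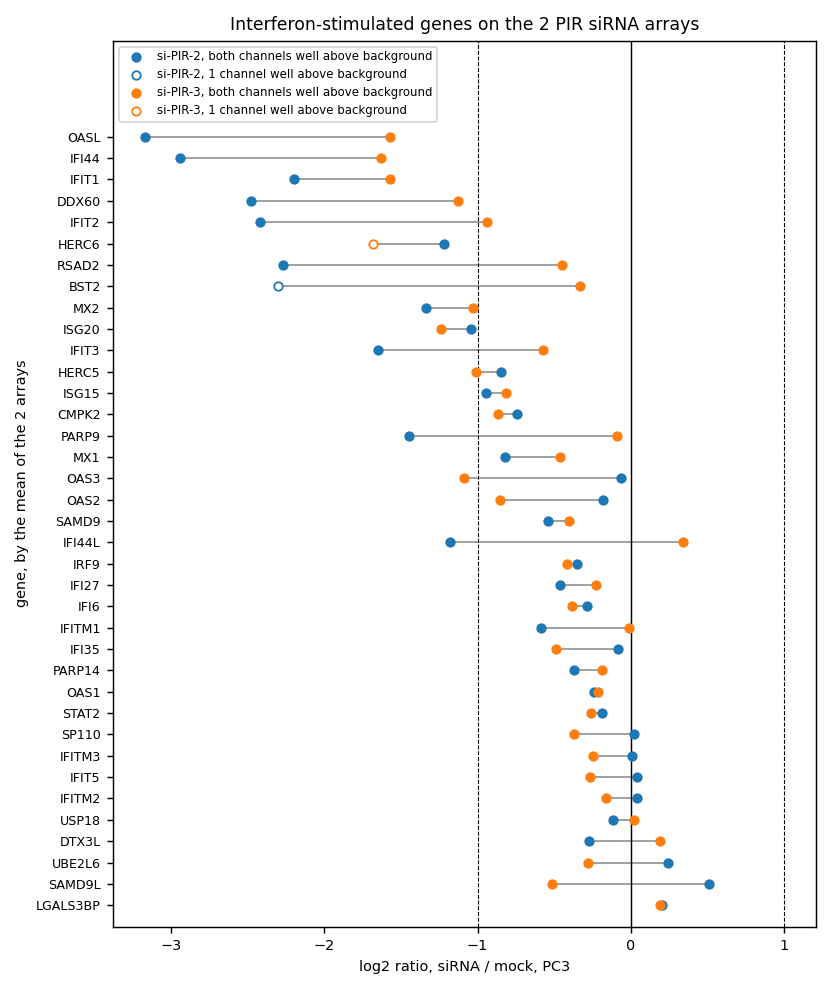
Each row is 1 of the 37 genes read on both PC3 arrays, ordered by the mean of the 2, with the log2 ratio of si-PIR-2 (blue) and si-PIR-3 (orange) over mock on the horizontal axis and a line joining them; open points rest on 1 channel. At the top, 7 genes have both points left of the dashed line at -1, and the lines of RSAD2 and OASL are long.

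The mean of the 2 PC3 arrays was then tested against 0 for all genes with limma. After Benjamini-Hochberg adjustment 0 of 22459 genes passed 0.05 (0% of all genes), PIR included, and so did 0 of the 37 listed genes, the smallest adjusted p among them being 0.395. At an unadjusted p under 0.05, 13 of the 37 were lower (4.21% of all genes) and 0 higher (6.22%). The median of the 37 mean ratios was -0.47 and that of all genes tested 0.03, and 36 of the 37 lay below 0. The share of all mean ratios below 0 was not taken, and on each PC3 array alone 45% of all genes read were below 0. OASL had a mean ratio of -2.37 ± 0.44 (SE, n = 2 arrays, limma adjusted p = 0.441). IFI44 stood at -2.28 ± 0.37 (SE, n = 2 arrays, limma adjusted p = 0.434) and IFIT1 at -1.88 ± 0.24 (SE, n = 2 arrays, limma adjusted p = 0.395). The other 10 that passed without adjustment were IFIT2, IFIT3, MX1, MX2, ISG15, HERC5, HERC6, CMPK2, ISG20 and DDX60. With 2 arrays the adjusted test had very little power, and a count of 0 does not show that the genes were at mock level.

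Whether the list had 1 direction over the transfections at large was tested on 1 average per cell line. Of 18660 genes, 67 passed 0.05 after adjustment in limma (0.359% of all genes), and of the 33 listed genes that could be read on all 8 arrays 0 passed, with a smallest adjusted p of 0.117. At an unadjusted p under 0.05, 5 were lower (7.89% of all genes) and 0 higher (12.5%), namely IFIT1, OASL, HERC5, DDX60 and IFI35. HERC5 had a mean over the 5 lines of -0.90 ± 0.28 (SE, n = 5 lines, limma adjusted p = 0.15). IFI35 had a small but even mean of -0.31 ± 0.08 (SE, n = 5 lines, limma adjusted p = 0.117), with a ratio below 0 on all 8 arrays. The median of the 33 means was -0.20, against 0.03 for all genes. The 8 genes left out were unread in PC3 or PANC1, the lines with the lowest mock levels.

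The PC3 arrays were set against the averages of the other 4 lines in 1 fit. The 2 PC3 arrays counted as 2 units though they are of 1 line, so for PC3 the p-values do not measure the spread between lines. Cell line and transfected RNA cannot be told apart in this comparison. Of all genes 1 passed 0.05 after adjustment in limma (0.00536% of all genes), which was PIR, and 0 of the 33 listed genes did. At an unadjusted p under 0.05, 10 of the 33 were lower in PC3 (4.68% of all genes) and 0 higher (3.89%). The median difference of the 33 was -0.54 and that of all genes 0.00. MX2 had the smallest p of the list, with a difference of -1.23 ± 0.20 (SE, 2 arrays against 4 lines, limma adjusted p = 0.337). Its signal was dim in PC3, and its mean ratio there was -1.18, and -0.38 with normexp at an offset of 50. ISG20 differed by -1.01 ± 0.17 (SE, limma adjusted p = 0.36) and IFI44 by -2.16 ± 0.57 (SE, limma adjusted p = 0.507). HERC5, whose ratio passed -1 in 4 lines, though mostly on dim signal, differed by -0.04 ± 0.54 (SE, limma adjusted p = 0.989).

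miR-204-5p was given to 2 lines that differ in their mock levels. Of the 41 genes, 37 had a lower ratio in SW1990 than in MDA-MB-231, 22 were below 0 in both and 1 was above 0 in both. The shares of these joint counts over all genes were not taken. On each array alone, 43.9% of all genes read were below 0 in SW1990 and 44.7% in MDA-MB-231. HERC5 and IFI44 were the furthest below 0 in MDA-MB-231, at -1.12 and -0.85, and both were also low in SW1990, at -1.86 (on dim signal) and -0.85. With 1 array per line the difference between lines was not tested.

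The 2 strands of miR-144 in SK-MES-1, and the 2 strands of miR-130 in PANC1, share the mock line of their pair, and 1 array per strand allows no test. HERC5, for example, read 0.70 and 0.06 with the miR-144 strands and -2.20 and 0.27 with the miR-130 strands. Between lines, which share no mock cells, the genes below -1 can be set side by side. Of 33 listed genes read on both PC3 arrays and with miR-130-5p in PANC1, 6 lay below -1 on both PC3 arrays, 6 with miR-130-5p, and 3 in all (IFIT1, OASL and DDX60), which is 50% of each list. Over all 20420 genes so read, 64 lay below -1 on both PC3 arrays and 1212 with miR-130-5p, and 23 in all, which is 35.9% of the first and 1.9% of the second. Both listed genes below -1 in SW1990, OASL and HERC5, were among the 7 of the miR-130-5p array, while 17.2% of all genes below -1 in SW1990 were below it there too. The HERC5 signal was dim on both of these arrays. No test of these overlaps was made.

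The signalling genes upstream of the list mostly stood closer to mock. Of 41 genes listed for interferons, receptors, kinases, sensors and feedback regulators, 40 were on the array, and 29 of these were tested in PC3. After adjustment in limma 0 passed 0.05 (0% of all genes). At an unadjusted p under 0.05, 1 of the 29 was lower (4.21% of all genes) and 2 were higher (6.22%), which is near those shares. The median mean ratio of the 29 was -0.29, against 0.03 for all genes tested. IFIH1, the sensor of long double-stranded RNA, had -0.52 and -0.41, 0.60 and 0.50, -0.31, 0.17, and -0.996 and 0.33. IFIH1 thus lay on the same side of 0 as most listed genes in PC3, SK-MES-1 and with miR-130-5p. IFNAR1, a receptor subunit, had 0.85 with si-PIR-2 and -2.65 with si-PIR-3. SOCS3, a feedback inhibitor of cytokine signalling, was above 0 with both siRNAs, at 1.39 and 0.49.

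Of the interferon genes on this list, 7 were found on the array. IFNA1 was listed but not found under that symbol, and other interferon alpha genes were not looked up. IFNG and IFNK were not well above background in any channel, and IFNB1 was so on 1 array, in SW1990, in Cy5 alone. IFNE, an interferon of epithelia, was detected in mock cells of 4 lines and read between -1.09, with miR-144-5p, and 0.29. IFNL2 was detected in mock cells of all 5 lines, IFNL1 in SW1990 and PANC1, and IFNL3 in none. IFNL1, a type III interferon, read 1.63 with miR-130-3p and -0.63 with miR-130-5p in PANC1, and -0.71 in SW1990, IFNL2 read 1.20 and -0.41 in PANC1, and IFNL3 read 2.12 with miR-130-3p on Cy5 alone, at least 0.88. These were the arrays on which IFI44 and RSAD2 were above 1 (miR-130-3p) and on which 7 listed genes were below -1 (miR-130-5p), and the part of these interferons in those ratios was not tested.

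Chemokine and interferon-gamma response genes had ratios above 1 in SK-MES-1 and, with 1 strand, in PANC1. Of 11 such genes, 6 of 11 read were above 1 with miR-144-5p (4.17% of all genes), CXCL9 among them on Cy5 alone. With miR-144-3p 3 of 10 were (4.51%), and with miR-130-3p 2 of 4 (6.4%, CCL5 and, on Cy5 alone, CXCL10). None was below -1 on these arrays. In SK-MES-1 CXCL10 read 2.75 and 2.36 and CXCL11 3.16 and 3.15, both attractants of T cells. In PC3 0 of the genes read passed 1 in either direction, and in SW1990 3 of 8 were below -1 (CCL5, GBP2 and GBP5, against 1.93% of all genes).

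NF-kB target genes were read as a second inflammatory list, with 12 on the array. With si-PIR-2, 6 of 11 read were above 1 (5.82% of all genes), among them CCL2 and CCL20 on Cy5 alone, and CXCL8 was below -1 (2.87%). With si-PIR-3 CCL2, on Cy5 alone, was above 1 (3.92% of all genes) and CXCL1 below -1 (2.28%), of 10 read, with a median of 0.06. With miR-130-5p 8 of 12 were above 1 (7.55% of all genes), 5 of them on Cy5 alone. With miR-130-3p 4 of 11 were (6.4%), of which CCL20, CXCL3 and TNF on Cy5 alone. In SK-MES-1 6 of 10 and 7 of 11 were above 1 (4.17% and 4.51% of all genes), CXCL8 with miR-144-3p on Cy5 alone. In SW1990, which had the lowest median of the interferon-stimulated genes, 0 of 12 were above 1 (4.56% of all genes). IL6 was below -1 there (1.93%), and the median was -0.28. In MDA-MB-231, of 10 read, BIRC3 was above 1 (3.36%) and CXCL3 below -1 (1.88%). Several NF-kB genes were thus above 1 on 2 arrays where the listed genes were low, si-PIR-2 and miR-130-5p, and on arrays where they were high, but not in SW1990. NFKBIA, the inhibitor and early target of NF-kB, had 1.45 and 0.75 in PC3, 1.11 and 0.97 in SK-MES-1, and 1.23 and 0.71 in PANC1. The part of these genes in the ratios of the interferon-stimulated genes was not tested.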

How the data were processed

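RNA of 8 transfections was measured on 8 two-colour arrays. The authors deposited the scanner files, which hold linear Cy3 and Cy5 intensity per spot, and a value table of log10 ratios. The deposited log10 ratio of Cy5 over Cy3 was made by Agilent Feature Extraction 11.5.1.1 after background correction and linear and LOWESS dye normalization, and the table differed from the scanner ratios by 0. Ratios were turned to log2. Controls and outlier-flagged spots were dropped, and repeated spots of 1 probe averaged. The brightest probe by mean log2 signal stood for each gene (13 listed genes have several), and a gene was read where that probe was well above background in at least 1 channel. Of the 55 listed probes, 49 had their accession in the RefSeq table, all 49 under the same symbol. Probe coordinates are those of the array annotation (hg19), and exons were not assigned.

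limma 3.58.1 in R 4.3.3 tested the mean of the 2 PC3 arrays, the mean of 5 line averages, and the 2 PC3 arrays against the other 4 line averages. The functions were lmFit and eBayes, and the steps were tested on simulated data. Whether the mock channels of a line hold 1 RNA preparation is not stated, so the spread of mock cells is not measured, and p-values measure only the spread between these arrays. Alternatives were normexp (offset 50 or 1) with loess, the value table, median centring, other filters, the mean over probes, thresholds of 1.5 and 0.58, and leaving out arrays or lines. Named genes follow a rule: the 10 widest mock spans, the 10 largest ratios with both channels read, and genes past 1 on both PC3 arrays or on 3 or more arrays. IFI6, GBP1, EPSTI1, ISG15, IFI35 and the signalling and chemokine genes with values were chosen after their values were seen. The listed genes and the other lists were chosen with earlier results of these data known. The number of arrays, not read depth, limits precision. Figures were drawn with matplotlib 3.10.9. Results on some signalling and marker genes are not reported here.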

Additional observations from a re-analysis of the deposited data

How the results depend on the processing

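No listed gene passed the adjusted threshold in limma under any alternative tried. For PC3 this says nothing about stability, since the 2-array fit called no gene at all, PIR included. For the mean of 5 lines, the alternatives included each line left out and all 8 arrays with cell line as a random block. The count of genes past 1 on both PC3 arrays was 7 as reported, 4 with normexp at an offset of 50 and loess (IFI44, IFIT1, ISG20 and OASL), 3 at a threshold of 1.5 and 11 at 0.58, and it lay between 9 and 13 on a single array. At 1.5, 21 of 22459 genes read on both arrays lay below on both and 47 above. On single arrays 2.28% and 2.87% of all genes lay below -1. For the counts of 4 and 11 the share over all genes was not taken. The count past 1 summed over the 8 arrays was 47 as reported, 17 with normexp at an offset of 50, 21 at a threshold of 1.5 and 105 at 0.58. The shares over all genes moved as well. With si-PIR-2, 13 of 38 listed genes lay below -1 as reported (2.87% of all genes) and 7 with normexp at an offset of 50 (0.806%). Above 1 lay 5.82% of all genes on that array as reported and 0.343% with that correction. The median ratio of the list in PC3 was -0.47 as reported and -0.22 with normexp at an offset of 50, which pulls the ratios of dim probes toward 0, and lay between -0.54 and -0.42 with either array left out. The median over 5 lines lay between -0.32 and -0.12 with a line left out. HERC6 was lost from the PC3 count when both channels had to be well above background, MX2 when probes were averaged, and both with normexp at an offset of 1, which left 5. Without a filter on dim probes GBP1 counted as above 1 on both. The number above 1 with miR-144-5p fell from 7 to 2 and with miR-144-3p from 4 to 1 with normexp at an offset of 50 (0.175% and 0.0905% of all genes). The number of genes with a mock span of 2 or more was 39, 27 with normexp at an offset of 50 (8.36% of all genes), 28 without SW1990 (22.9%) and 38 without MDA-MB-231, both lines left out after seeing the data, and 38 or 39 with any 1 array of the other 3 lines left out. No paired analysis was possible because the groups share fewer than 2 replicate numbers. The low mock levels of PANC1 and PC3 limit what can be read there, with 34 to 38 genes read per array.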
